A study of Mus musculus with 6 samples.

Results

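The proteasome genes of the adult mouse retina were compared between Trim9 KO mice and their wildtype (WT) littermates. Members were the genes whose symbol is Psma to Psmg followed by a number, together with Psmf1, Adrm1 and Sem1. Of 50 symbols looked for, 48 were each named by at least 1 probe set of the array that names no other gene, out of 18193 genes read in this way. Adrm1 was not analysed here, and Psme2 was named only by a probe set that also names another gene. The 48 genes were read by 102 probe sets, sets of short DNA probes that are read out as 1 signal.

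The proteasome is the protease that degrades proteins tagged with ubiquitin. Its 20S core is a barrel of alpha rings around beta rings, and 3 of the beta subunits (Psmb5, Psmb6 and Psmb7) cut proteins. A 19S cap, made of a base with a ring of ATPases and a lid with a deubiquitinase, recognises, unfolds and feeds the tagged protein into the core. Dedicated chaperones assemble both parts. Interferon exchanges the 3 cutting subunits for Psmb8, Psmb9 and Psmb10, giving the immunoproteasome that makes peptides for presentation to T cells. TRIM9 is itself an E3 ubiquitin ligase, an enzyme that attaches ubiquitin to other proteins. In photoreceptors, misfolded proteins place a known burden on the proteasome.

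The samples were 3 adult retinas labelled Trim9 KO and 3 from adult WT littermates. The Trim9 KO mice lack exon 1 of Trim9, which was cut out by crossing to CMV-cre mice, a driver active in most tissues, so that the loss is not confined to the retina. Biotin-labelled RNA of each sample was read on 1 Affymetrix mouse expression array. The sources used here do not say how many animals a sample holds, and p-values measure the spread between these samples. In bulk tissue, fewer cells of a type and less RNA per cell cannot be told apart.

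The values are linear intensities scaled by the authors, and each was taken here as log2(intensity + 16), called log2 intensity below. Array medians were 252 to 808 in Trim9 KO and 218 to 676 in WT, as linear intensities. Trim9 KO replicate 1 had the lowest mean Pearson's r with the other arrays across probe sets (0.50, against 0.63 to 0.74 for the rest). The Actb control, which compares the 3' and 5' ends of a transcript and grows with RNA degradation, had a 3' to 5' intensity ratio of 2.83, 94.5 and 90.5 on Trim9 KO replicates 1, 2 and 3, against 20.2, 9.87 and 3.43 on WT replicates 1, 2 and 3. The same ratio of Gapdh was 134, 153 and 163 in Trim9 KO and 310, 82.0 and 0.905 in WT, so that by this control WT replicate 3 alone stood apart. The brightest Trim9 probe set read 10.56, 9.0 and 8.58 in Trim9 KO and 12.05, 10.80 and 10.72 in WT (log2 intensity). All 3 Trim9 KO arrays lay below all 3 WT arrays (exact permutation p = 0.1, two-sided, and no smaller value is possible with 3 arrays a genotype). Of the other 3 Trim9 probe sets, 1 was also without overlap (log2 fold change -2.48) and 2 overlapped (-0.77 and -0.58). The position of these probe sets relative to exon 1 is not known here. The 5 rod markers read here averaged log2 intensities of 14.71 to 17.59 over the 6 arrays. All 5 rod markers had a lower mean in Trim9 KO, with summed intensities of 358000 to 571000 in Trim9 KO and 547000 to 863000 in WT, and 1 of 6 endothelial and blood markers and 1 of 6 pigment epithelium and lens markers did. The summed intensities of the endothelial and blood markers were 2200 to 4630 in Trim9 KO and 1390 to 5140 in WT, and those of the pigment epithelium and lens markers 4270 to 25900 in Trim9 KO and 4260 to 5860 in WT. Of these markers, only Pecam1, an endothelial adhesion molecule, was without overlap between genotypes (log2 fold change 1.59), where 8.24% of all genes were. Its signal was dim, with a mean log2 intensity of 6.62 against a median of 8.31 over all probe sets. The part of these cell types in the results was not tested.

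Promoters are shown for a pair of the 6 members in which the genotypes did not overlap, because both hold at least 1 of 4 motifs searched on both strands. Each runs from 250 bases before to 50 bases after the RefSeq start (build GRCm38.p6), in the direction of the gene, with motif matches in capitals. The promoter of Psmb9, the immunoproteasome subunit that takes the place of Psmb6, lies at chr17:34187281-34187580 on the minus strand, with Tap1 as a neighbouring gene. Its capitals mark a CCAAT box in reverse orientation, at position -8 from the start.
Psmb9: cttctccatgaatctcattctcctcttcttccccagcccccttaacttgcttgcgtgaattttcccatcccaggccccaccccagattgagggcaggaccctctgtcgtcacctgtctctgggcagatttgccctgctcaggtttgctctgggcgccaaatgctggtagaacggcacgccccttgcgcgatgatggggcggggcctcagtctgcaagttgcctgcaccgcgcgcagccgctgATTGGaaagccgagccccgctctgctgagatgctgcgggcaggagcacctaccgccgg
The promoter of Psmd9, a chaperone of the 19S base, lies at chr5:123227940-123228239 on the plus strand. Its capitals mark, at position -159 from the start, a match to the core of the interferon-stimulated response element (GAAA, any 2 bases, GAAA) and, at position -31, a match to TGACNNNGC, the core of the antioxidant response element.
Psmd9: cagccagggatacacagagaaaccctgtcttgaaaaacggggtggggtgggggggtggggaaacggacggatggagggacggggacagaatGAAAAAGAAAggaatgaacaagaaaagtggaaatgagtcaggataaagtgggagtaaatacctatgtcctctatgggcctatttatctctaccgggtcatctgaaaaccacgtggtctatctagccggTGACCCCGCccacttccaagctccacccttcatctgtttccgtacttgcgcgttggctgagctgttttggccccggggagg
The antioxidant response element is read by NRF1 (Nfe2l1), a regulator of proteasome genes. Promoters were on hand for 40 members. TGACNNNGC was found in 7 of them (17.5%, against 14.0% of the promoters of 27025 genes), among them those of Psmb5 and Psmb6. The interferon-stimulated core was found in 5 (12.5%, against 3.99%), TTCNNNGAA, the gamma-activated sequence, in 3 (7.50%, against 9.55%), Psmb8 among them, and CCAAT in 14 (35%, against 41.1%). A match is a description of the sequence and not a binding site, and the promoters of Psmd6 and Psmg3 held none of these letters in this window.

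No member passed the test between genotypes. In limma, with p-values adjusted by the Benjamini-Hochberg method over 45037 probe sets, 0 of 48 members had an adjusted p below 0.05 (lowest adjusted p = 0.999), and 0.0% of all probe sets had one. At an unadjusted p below 0.05 there were 4 members (Psmb9, Psmd8, Psmg2 and Psmg3), all with a lower mean in Trim9 KO, where 2.56% of all genes had such a p. Of the 102 member probe sets 8 had one, and of all probe sets 2.88%. A lower mean in Trim9 KO was seen for 29 members (60.4%) and a higher mean for 19. Among all genes 44.8% had a lower mean. Of the 43 members brighter than the median of all probe sets, 28 (65.1%) had a lower mean, against 50.0% of all genes of that kind. The median log2 fold change (Trim9 KO over WT) was -0.38 for members and 0.14 for all genes. Without WT replicate 3 the median of the members was -0.03. With array medians made equal it was -0.70, and that of all genes -0.19. All 3 Trim9 KO arrays lay below all 3 WT arrays for 4 members (8.33%), where 2.89% of all genes did so, and above them for 2 (4.17%), where 5.35% of all genes did so. In either direction 8.24% of all genes were without overlap.

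**Figure D1:**
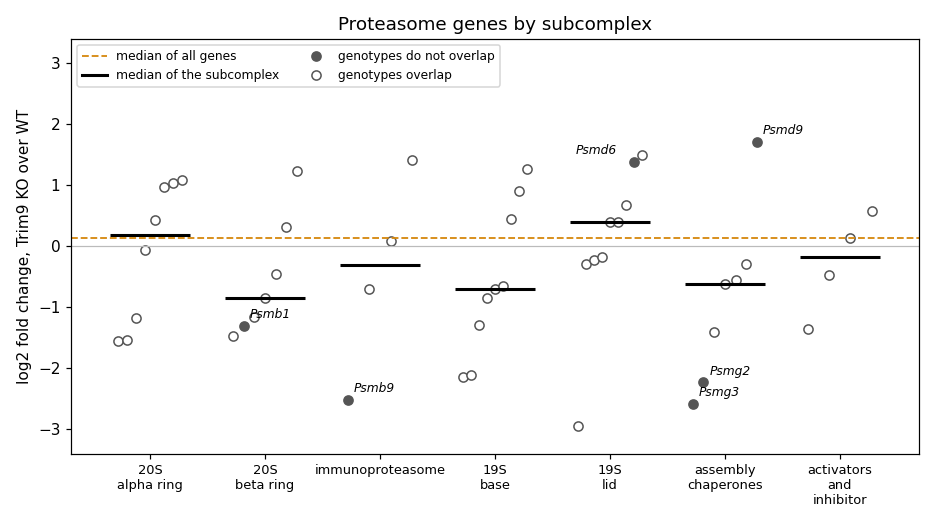
The y axis is the log2 fold change of Trim9 KO over WT and the x axis the subcomplex, with 1 point for each of the 48 proteasome genes, filled where the genotypes do not overlap. Black lines are subcomplex medians, from -0.85 for the beta ring to 0.39 for the lid, and the dashed line is the median of all genes (0.14); every subcomplex has genes on both sides of 0.

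The alpha ring, which gates the entry to the core, was split by the brightest probe set of each gene. Of its 8 genes, Psma1, Psma2, Psma4 and Psma7 had a lower mean in Trim9 KO and Psma3, Psma5, Psma6 and Psma8, a testis form, a higher one (median log2 fold change 0.18, and -0.14 with array medians made equal). Psma1 had log2 intensities of 12.23, 11.05 and 10.84 in Trim9 KO and 11.67, 13.50 and 13.57 in WT, a log2 fold change of -1.54 (standard error 1.00). Psma4 read 13.16, 10.38 and 9.28 in Trim9 KO and 9.93, 13.50 and 14.05 in WT (log2 fold change -1.55, standard error 1.36). In both genes WT replicates 2 and 3 were highest and WT replicate 1 lay among the Trim9 KO arrays, so that the genotypes overlapped. The other alpha genes had log2 fold changes of -1.17 to 1.09, with the highest for Psma5. Psma8 was dim, with a mean log2 intensity of 7.45 against a median of 8.31 over all probe sets. Further probe sets were at -0.01 for Psma3, -0.13 and 1.27 for Psma5 and -1.34, 1.17 and 1.57 for Psma6. Those of Psma1 were at -1.64, -0.51 and 0.88 and that of Psma7 at -1.45. The median of the ring also changed sign with the arrays, being -0.59 when Trim9 KO replicate 1 was left out and 0.51 when Trim9 KO replicate 3 was. The log2 fold change of Psma4, which has 1 probe set, was -0.72 in the absence of Trim9 KO replicate 3, and that of Psma1 was -0.70 when its 4 probe sets were averaged.

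In the beta ring, 5 of 7 genes had a lower mean in Trim9 KO (median log2 fold change -0.85). Psmb1, a structural subunit, read 11.67, 11.89 and 12.78 in Trim9 KO against 13.63, 13.31 and 13.33 in WT, so that the genotypes did not overlap (log2 fold change -1.31, standard error 0.91). WT arrays agreed closely for Psmb1 (SD 0.18) and Trim9 KO arrays less so (SD 0.59). Psmb2, another structural subunit, was at 7.70, 10.93 and 10.88 in Trim9 KO and at 10.74, 10.61 and 12.56 in WT (log2 fold change -1.47, standard error 1.16). Its low mean in Trim9 KO rested on replicate 1, and the log2 fold change was -0.40 without it. Psmb3 and Psmb4 had higher means (1.23 and 0.32).
The 3 cutting subunits all had a lower mean, and none of them separated the genotypes. Psmb5, the chymotrypsin-like protease, read 12.99, 10.35 and 11.48 in Trim9 KO and 10.75, 11.88 and 13.56 in WT (log2 fold change -0.46, standard error 1.11). Psmb6, the caspase-like protease, read 11.24, 11.71 and 11.63 in Trim9 KO and 10.95, 12.52 and 13.65 in WT (log2 fold change -0.85, standard error 1.01). Psmb7, the trypsin-like protease, read 7.13, 8.34 and 10.19 in Trim9 KO and 7.69, 7.17 and 14.26 in WT (log2 fold change -1.16, standard error 1.71). WT replicate 3 was the highest array for each of the 3. Without it the log2 fold changes of Psmb5, Psmb6 and Psmb7 were 0.29, -0.21 and 1.12, and the median of the beta ring was 0.20.

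**Figure D2:**
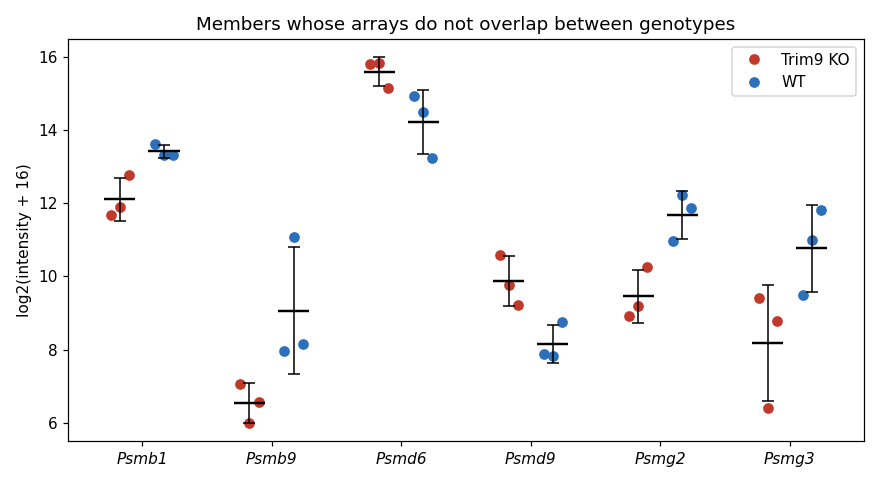
Log2 intensity (y axis) on the 3 Trim9 KO (red) and 3 WT (blue) arrays of the 6 members in which the genotypes do not overlap (x axis), where each point is an array, long lines show means and bars SDs. Psmb1, Psmb9, Psmg2 and Psmg3 are lower and Psmd6 and Psmd9 higher on every Trim9 KO array.

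The immunoproteasome group held 4 genes, counting in Psmb11, which is not among the exchanged subunits named above. Of these genes, Psmb9 and Psmb10 had a lower mean in Trim9 KO and Psmb8 and Psmb11 a higher one. Psmb9 read 7.07, 5.99 and 6.56 in Trim9 KO against 7.96, 11.07 and 8.16 in WT (log2 fold change -2.52, standard error 1.09). Its genotypes did not overlap, but WT replicate 2 stood well above the other WT arrays, and the log2 fold change was -1.52 without it. Psmb10 read 8.31, 10.56 and 8.84 in Trim9 KO and 8.96, 10.22 and 10.66 in WT, with overlap (log2 fold change -0.71, standard error 1.02). Psmb8 gave opposite answers in its 2 probe sets. The brighter of them read 8.62, 8.32 and 7.38 in Trim9 KO and 6.70, 7.98 and 5.39 in WT (log2 fold change 1.42, standard error 1.02). The other read 7.51, 4.89 and 4.84 in Trim9 KO and 7.28, 9.36 and 8.26 in WT (log2 fold change -2.56, standard error 1.09). All of these signals but those of Psmb10 had a mean log2 intensity below the median of all probe sets (8.31). Psmb11, a subunit known from the thymus, had a log2 fold change of 0.09.
Each immunoproteasome subunit was then set against the constitutive subunit it replaces, as the difference of the 2 log2 intensities on each array, which removes a shift common to the array. Psmb9 minus Psmb6 was -4.17, -5.72 and -5.07 in Trim9 KO and -2.99, -1.45 and -5.49 in WT. The mean difference between genotypes was -1.67 (standard error 1.26, exact permutation p = 0.3). For Psmb8 minus Psmb5 it was 1.87 (standard error 1.58, exact permutation p = 0.6), and for Psmb10 minus Psmb7 0.44 (standard error 2.25, exact permutation p = 0.9). The genotypes overlapped in all 3 pairs.

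**Figure D3:**
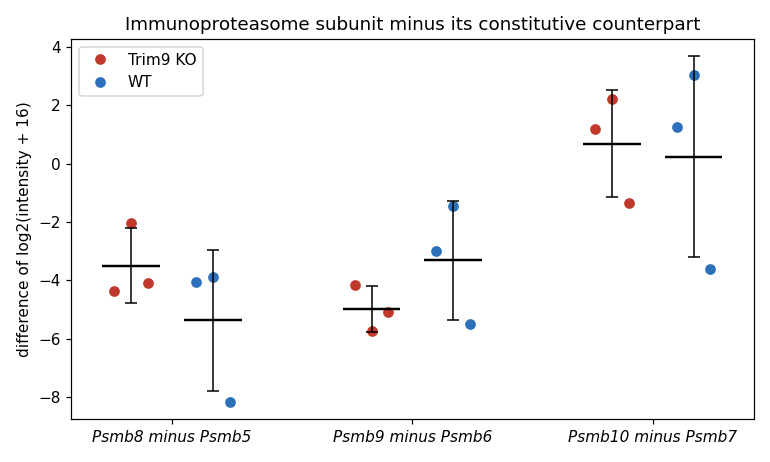
Difference of log2 intensity (y axis) between each immunoproteasome subunit and the subunit it replaces (x axis), on the 3 Trim9 KO (red) and 3 WT (blue) arrays, where each point is an array, long lines show means and bars SDs. Only differences between genotypes are comparable, since levels of different probe sets are not on 1 scale; for Psmb9 minus Psmb6 WT replicate 3 (-5.49) lies among the Trim9 KO arrays.

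Class I antigen presentation is the pathway that uses immunoproteasome products. Of 9 genes, 6 had a lower mean in Trim9 KO (median log2 fold change -0.45), and 0 passed limma, adjusted or at an unadjusted p below 0.05. H2-K1, a class I heavy chain whose signal may include its close relatives, read 6.66, 10.23 and 10.86 in Trim9 KO against 11.38, 11.02 and 12.22 in WT (log2 fold change -2.29, standard error 1.2). It was 1 gene of the 9 without overlap between genotypes, where 8.24% of all genes were, and the log2 fold change was -1.0 without Trim9 KO replicate 1. Tapbp, which loads peptides, was at -1.13, and the chaperone Calr at -1.03. Tap1 and Tap2, the peptide transporters that flank Psmb8, were at 0.15 and -0.68. Of 10 microglia and leukocyte markers, 5 had a lower and 5 a higher mean. Their summed intensity was 25000 to 40300 in Trim9 KO and 7550 to 28500 in WT. Csf1r, the receptor for colony-stimulating factor, made up most of the sum on every array but WT replicate 3. Its intensities were 34090, 23920 and 20520 in Trim9 KO and 8658, 23540 and 3365 in WT. The log2 fold changes of the 10 markers ran from -1.53 for C1qc to 2.72 for Itgam, and the part of such cells in the values of Psmb9 was not tested.

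In the 19S base, 6 of 9 genes had a lower mean in Trim9 KO (median log2 fold change -0.71). Psmd4, a receptor for ubiquitin chains, read 10.34, 9.24 and 9.26 in Trim9 KO and 9.75, 12.19 and 13.23 in WT (log2 fold change -2.11, standard error 1.10). Psmc1, an ATPase of the ring, read 10.54, 6.03 and 9.31 in Trim9 KO and 8.58, 10.73 and 12.97 in WT (log2 fold change -2.14, standard error 1.42). For both, WT replicate 1 lay among the Trim9 KO arrays and WT replicates 2 and 3 lay above all of them. The log2 fold change of Psmc1 was -0.84 without Trim9 KO replicate 2, its lowest array, and that of Psmd4 -1.36 without WT replicate 3. Further probe sets had the other sign, at 1.11 for Psmc1 and at 0.59 and 1.13 for Psmd4, and over all probe sets of each gene the mean log2 fold change was -0.52 for Psmc1 and -0.13 for Psmd4. By their brightest probe sets, the 6 ATPases were split. Psmc1, Psmc3 and Psmc5 were at -2.14 to -0.66 and Psmc2, Psmc4 and Psmc6 at 0.45 to 1.26. Other probe sets were at -1.07 and 0.86 for Psmc2, -1.89 for Psmc4 and 0.01 and -2.11 for Psmc6. In that of Psmc4, every Trim9 KO array lay below every WT array. The large scaffolds Psmd1 and Psmd2 were at -0.71 and -1.30. The median of the base was 0.03 without WT replicate 3.

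Log2 fold changes of the lid genes ran from -2.95 for Psmd8 to 1.5 for Psmd7. That of Psmd7 had a standard error of 1.5, and its mean log2 intensity of 8.26 was below the median of all probe sets (8.31). Its other probe sets were at -0.56 and 0.04. Psmd8, a lid subunit, had the lowest log2 fold change of all 48 members, at -2.95 (standard error 1.33). It read 6.57, 7.13 and 8.71 in Trim9 KO and 7.65, 10.67 and 12.95 in WT, so that WT replicate 1 fell among the Trim9 KO arrays. The log2 fold change of Psmd8 was -1.69 without WT replicate 3. Psmd6, another lid subunit, was bright, with 15.81, 15.85 and 15.15 in Trim9 KO and 14.93, 14.50 and 13.23 in WT, and did not overlap (log2 fold change 1.38, standard error 0.95, and 0.88 without WT replicate 3). Psmd14, the deubiquitinase that removes the ubiquitin chain before degradation, was at 0.40 and the small subunit Sem1 at -0.30. In all, 4 of 9 lid genes had a lower mean (median log2 fold change 0.39, turning to -0.34 without Trim9 KO replicate 1 and to -0.06 without WT replicate 2).

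Of 7 assembly chaperones 6 had a lower mean in Trim9 KO (median log2 fold change -0.62). The median of the chaperones was 0.24 among the 3 arrays with an Actb ratio above 10 and -1.86 among the others. The only Trim9 KO array among those others was replicate 1, which had the lowest mean r with the other arrays. Of the 7 chaperones, 3 did not overlap between genotypes, 2 of them lower and 1 higher in Trim9 KO, where 8.24% of all genes did not overlap. Psmg2, which pairs with Psmg1 to start the alpha ring, read 8.92, 9.18 and 10.27 in Trim9 KO against 10.96, 12.22 and 11.88 in WT (log2 fold change -2.23, standard error 0.95). The SD of Psmg2 was 0.72 in Trim9 KO and 0.65 in WT. Its log2 fold change was -2.64 to -1.97 when any 1 array was left out, where the lack of overlap fixes the sign. It was -1.24 among the arrays with an Actb ratio above 10 and -3.13 among the others. Psmg3, which pairs with Psmg4 in the same task, read 9.41, 6.40 and 8.77 in Trim9 KO and 9.48, 11 and 11.82 in WT. Here the groups were separated by a narrow gap between Trim9 KO replicate 1 and WT replicate 1 (log2 fold change -2.58, standard error 1.12, and -1.68 without Trim9 KO replicate 2). The other probe set of Psmg3 was at 0.66, with overlap, and both averaged -0.96. Psmg1 and Psmg4 were at -0.29 and -0.56.
Psmd9, a chaperone of the base, had a higher mean in Trim9 KO, with 10.60, 9.78 and 9.23 in Trim9 KO against 7.88, 7.82 and 8.76 in WT (log2 fold change 1.71, standard error 0.94). The other base chaperones, Psmd5 and Psmd10, were at -0.62 and -1.41. Each of the 6 members without overlap had an adjusted p of 0.999 in limma. Their exact permutation p of 0.1, the smallest possible, follows from the lack of overlap by which they were picked and adds nothing to it.

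Among activators and inhibitors, Psme1, a subunit of the interferon-induced activator PA28, read 7.05, 8.92 and 10.98 in Trim9 KO and 9.27, 9.90 and 11.83 in WT (log2 fold change -1.35, standard error 1.21, and -0.39 without Trim9 KO replicate 1). Psmf1, which encodes the inhibitor PI31, read 11.05, 10.90 and 10.57 in Trim9 KO and 11.21, 10.82 and 8.77 in WT (log2 fold change 0.57, standard error 1.00). Both overlapped widely. The nuclear activator Psme3 was at 0.13 and Psme4, which encodes PA200, at -0.48. Other probe sets of Psme3 were at 0.72 and -2.10, and those of Psme4 ran from -2.75 to 0.64. In the lowest of Psme4, every Trim9 KO array lay below every WT array.

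Probe sets of the same gene often disagreed. Of 27 members with several probe sets, 25 (92.6%) had probe sets with log2 fold changes of both signs, where 62.4% of 9010 such genes did. For genes with 2 probe sets this was so in 11 of 12 members and in 47.4% of all such genes, and for genes with 3 or more in 14 of 15 members and in 78.8%. Psmd11 had the widest span, from -3.16 to 2.18 over 8 probe sets. In Psmd6 both probe sets were without overlap. The second probe set read 12.40, 10.82 and 12.47 in Trim9 KO against 12.98, 13.31 and 13.45 in WT (log2 fold change -1.35, standard error 0.95). The 2 probe sets of Psmd6 separated the genotypes completely, in opposite directions. Psmb3 read 8.55, 8.86 and 5.91 in Trim9 KO and 7.62, 11.77 and 12.66 in WT in its dimmer probe set (log2 fold change -2.91, standard error 1.40), beside 1.23 in the brighter. Psmb1 was at 0.68 and 1.14 in its other 2 probe sets, whose arrays overlapped.
In Psmd9 and Psmg2, a further probe set was without overlap in the same direction as the brightest. A second probe set of Psmd9 read 11.36, 9.13 and 8.42 in Trim9 KO against 8.30, 5.59 and 7.75 in WT (log2 fold change 2.42, standard error 1.15), whereas its remaining one was at -1.22. A second of Psmg2 read 6.21, 5.49 and 5.93 in Trim9 KO and 6.25, 11.30 and 12.10 in WT (log2 fold change -4.01, standard error 1.41), and its remaining one was at -0.14. For Psmg2 the separation of that second probe set rested on a gap between 6.21 and 6.25. In all, 57 of the 102 probe sets had a lower and 45 a higher mean.

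The direction went with the brightness of the probe set, a division made after the values were seen. Of the 13 members with a mean log2 intensity of 13 and above, 11 had a higher mean in Trim9 KO (median log2 fold change 0.91). Of all 1617 genes in that class 979 had a higher mean (median 0.21). Of the 13 members at 11 to 13, 13 had a lower mean (median -0.71, against -0.12 for all genes of the class, 56.7% of which had a lower mean). Of the 16 at 9 to 11, 12 had a lower mean (median -1.0, against -0.06 for all genes of the class, 52.3% of which had a lower mean). The remaining 6, below 9, were split 2 lower to 4 higher (median 0.26, against 0.42 for all genes of the class, 36.5% of which had a lower mean). Among the 15 member probe sets of 13 and above, 12 were of a kind whose name marks probes shared between transcripts or genes (_a_at, _s_at or _x_at). Over all brightness classes, 15 of 34 member probe sets of this kind had a lower mean (44.1%, against 44.5% of all such probe sets), and 42 of 68 plain ones (61.8%, against 46.4%).
On single arrays, the median log2 intensity of members at 13 and above was 15.24, 15.95 and 15.45 in Trim9 KO and 15.60, 14.25 and 13.69 in WT. The median of members at 11 to 13 was 12.09, 11.16 and 10.93 in Trim9 KO and 10.87, 12.52 and 13.43 in WT. WT replicates 2 and 3 thus had dimmer bright members and brighter middle members than WT replicate 1, which lay inside the range of the Trim9 KO arrays from 13 up and just below it at 11 to 13. With quantile normalization, 12 of the 13 members at 11 to 13 had a lower mean and 11 of those from 13 up a higher one, and with array medians made equal these were 13 and 10. Of all genes at 11 to 13, 54.6% had a lower mean with quantile normalization and 72.8% with equal medians. From 13 up, 42.6% and 56.1% of all genes had a lower mean. Without WT replicate 3 the median log2 fold changes were -0.48 at 9 to 11, -0.32 at 11 to 13 and 0.41 from 13 up, where those of all genes were -0.02, -0.16 and -0.01.

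**Figure D4:**
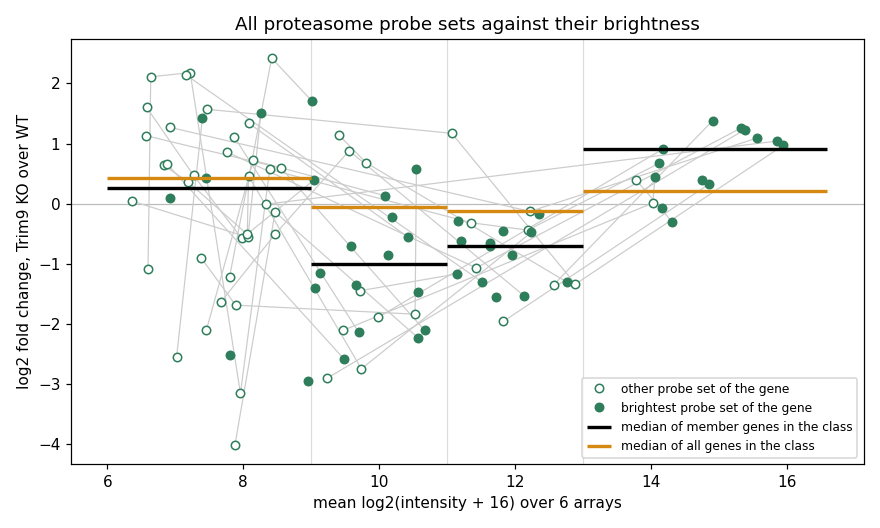
The y axis is the log2 fold change of Trim9 KO over WT and the x axis the mean log2 intensity over 6 arrays, for the 102 probe sets of proteasome genes; grey lines join probe sets of 1 gene, and filled points are the brightest probe set of each gene. Black and orange lines are class medians of members and of all genes; members sit at -0.71 between 11 and 13 and at 0.91 from 13 up.

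The 3' to 5' ratio of Actb was above 10 on Trim9 KO replicates 2 and 3 and WT replicate 1, and below it on Trim9 KO replicate 1 and WT replicates 2 and 3, with WT replicate 2 just below, at 9.87. Among the arrays above 10, the median log2 fold change of the members was 0.20, and 18 of 48 had a lower mean, where the median of all genes was 0.17 and 42.5% had a lower mean. Among the others it was -0.58, and 27 of 48 had a lower mean, against 0.19 and 46.1% for all genes. For members at 11 to 13 the medians were 0.19 above 10 and -0.81 among the others (all genes -0.08 and -0.36). At 13 and above they were 0.22 and 0.77 (all genes -0.19 and -0.02), and at 9 to 11 -0.13 and -1.66 (all genes 0.20 and 0.03). By the Gapdh ratio given above the arrays would not fall into these sets. Each set holds 3 arrays, with only 1 of a genotype, so that no test was made. In the lower set the only Trim9 KO array was replicate 1, which had the lowest mean r with the other arrays. The 2 differences cannot be told apart there. The split was made after the data were seen, and the part of RNA degradation in these values was not tested.

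**Figure D5:**
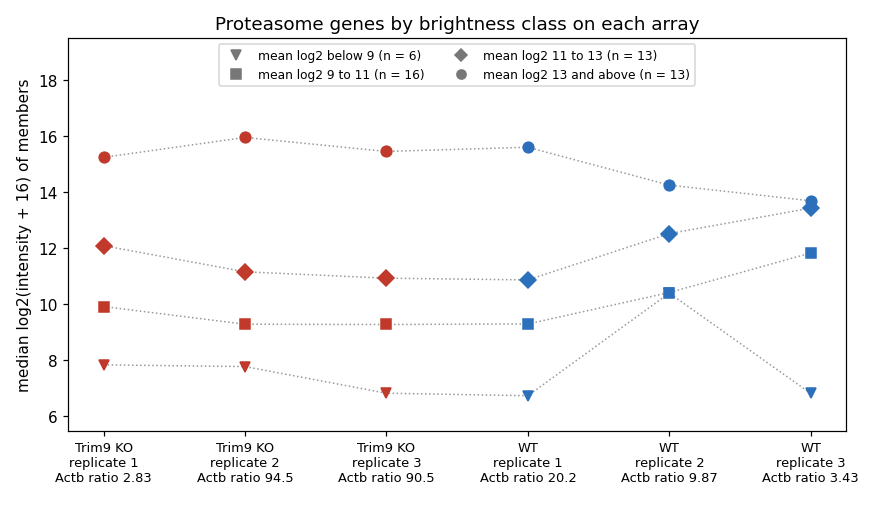
Median log2 intensity (y axis) of the member genes of each brightness class on each array (x axis), Trim9 KO in red and WT in blue, with the 3' to 5' ratio of Actb under each array. From 13 up, WT replicates 2 and 3 (14.25 and 13.69) lie below the other 4 arrays, and at 11 to 13 they lie above them (12.52 and 13.43).

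Other genes of the pathway were read from lists of proteasome factors, ubiquitin shuttles and the unfoldase, regulators of proteasome genes and, as above, class I antigen presentation. Of 34 measured genes, 21 had a lower and 13 a higher mean in Trim9 KO (median log2 fold change -0.44), 0 had an adjusted p below 0.05 in limma and 1 an unadjusted p below it, where 2.56% of all genes had one. A lower mean was seen for 5 of 10 proteasome factors, 6 of 8 shuttle and unfoldase genes and 4 of 7 regulators. The gene with an unadjusted p below 0.05 was Vcp, the ATPase that extracts ubiquitin-tagged proteins and hands them to the proteasome. Vcp read 8.23, 8.98 and 8.43 in Trim9 KO and 8.5, 12.61 and 14.51 in WT (log2 fold change -3.33, standard error 1.39), again with WT replicate 1 among the Trim9 KO arrays. The log2 fold change of Vcp was -2.01 without WT replicate 3 and -5.01 without WT replicate 1.
Ubqln1, a shuttle that carries tagged proteins to the 19S cap, read 11.84, 10.50 and 12.74 in Trim9 KO and 12.66, 13.14 and 14.07 in WT (log2 fold change -1.60, standard error 1.00). Pomp, the factor that matures the beta ring, read 12.91, 11.23 and 10.58 in Trim9 KO and 10.69, 13.81 and 14.16 in WT (log2 fold change -1.31, standard error 1.18), and Txnl1, a thioredoxin-like protein of the 19S cap, was at 1.19 (standard error 0.99). WT replicates 2 and 3 were highest for Pomp, as for Vcp. Nfe2l1, the regulator named above, read 12.03, 10.52 and 7.39 in Trim9 KO and 8.15, 12.25 and 12.89 in WT (log2 fold change -1.11, standard error 1.5, turning to 0.18 without Trim9 KO replicate 3). Nlrc5, which activates class I genes, was at 1.22 (standard error 1.01).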

How the data were processed

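Retinal RNA of 3 Trim9 KO and 3 WT samples was measured, with 1 array per sample, and groups and replicate numbers were taken from the sample titles. The deposited values are linear intensities, scaled by the authors to the same mean on every array after the lowest and highest 2% of probe sets were left out. MAS5 is named in the submitters' processing notes, with no version, whereas the methods state RMA, whose log2 output these values are not. With 3 arrays a genotype, precision is limited by their number.

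A pseudocount of 16 was added before taking log2. Of the probe sets, 64 controls were removed and 45037 fitted with limma 3.58.1 (lmFit, eBayes) in R 4.3.3 with no filter or block, with Benjamini-Hochberg adjustment over all of them and a threshold of 0.05. The script was first tested on simulated data. The probe set with the highest mean stood for its gene. All 48 members matched the gene reference by Entrez ID. All permutation tests were exact and two-sided. Promoters came from RefSeq (GRCm38.p6). Members and lists were chosen with earlier results of these data known. Values on each array are given for members without overlap, for the 2 with the largest limma statistic in each subcomplex and for the immunoproteasome subunits and their counterparts, and list genes were named by the same kind of rule. Genes of the ubiquitin list were not analysed here.

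Alternatives were quantile normalization, equal array medians, pseudocounts of 1 and 64, leaving out dim probe sets, a replicate block, a trended robust prior, averaging over the probe sets of a gene and leaving out each array. After the data were seen, the ratio of Actb was added as a block and as a split of the arrays, and brightness classes were formed.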

Additional observations from a re-analysis of the deposited data

How the results depend on the processing

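No member had an adjusted p below 0.05 under any alternative that gives a test, and 0 to 6 had an unadjusted p below it. The count of members with a lower mean was 25 to 32 under all alternatives except among arrays with an Actb ratio above 10 (18), and 26 to 32 when an array was left out. The median log2 fold change of the members was -0.74 to -0.03 when an array was left out, -0.70 with equal array medians, where the median of all genes was -0.19, and -0.04 with the Actb ratio as a block. With the replicate block it was -0.38. Deviations of same-numbered arrays from the means of their genotypes correlated at -0.23, -0.08 and 0.03. This cannot decide whether the numbers pair littermates, since other differences between arrays, such as those in the Actb ratio, enter the same deviations. The block left 1 member with an unadjusted p below 0.05, against 4.

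When the probe sets of a gene were averaged, values took the other sign for Psmb1 (0.17), Psmb8 (-0.57), Psmb8 minus Psmb5 (-0.12), Psmf1 (-0.97) and Txnl1 (-0.21). Among the named list genes, they kept their sign but were smaller in size for Vcp (-1.33), H2-K1 (-1.56), Ubqln1 (-0.75), Calr (-0.78) and Tapbp (-0.37). When an array was left out, ranges that crossed 0 were -1.48 to 1.85 for Psmb10 minus Psmb7, -1.15 to 0.29 for Psmb5, -2.42 to 1.12 for Psmb7, -0.17 to 1.04 for Psmf1 and -2.59 to 0.18 for Nfe2l1. The differences Psmb8 minus Psmb5 and Psmb9 minus Psmb6 ranged from 0.47 to 2.61 and from -2.76 to -0.74. With the Actb ratio as a block Psmb5 was at 0.22 and Nfe2l1 at 0.14. Among arrays with an Actb ratio above 10 the sign turned for Psmb2 (0.17), Psmb5 (0.17), Psmb6 (0.72), Psmb7 (1.57), Psmb10 (0.74), Psmb10 minus Psmb7 (-0.83), Psmd8 (0.28), Psme1 (0.67), Psmf1 (-0.47), Pomp (0.21), Vcp (0.20), Nfe2l1 (0.81), Calr (0.42) and Tapbp (0.57), and among the other arrays for Psmb5 (0.27). On the same split, arrays above 10 first, the medians were 0.17 and -1.64 for the beta ring, 0.83 and -1.33 for the immunoproteasome, 0.22 and -0.75 for the base, 0.24 and -1.86 for the chaperones and -0.38 and 0.26 for activators and inhibitor, whose median was -0.69 when probe sets were averaged. The cause was not tested.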
